A study of Mus musculus with 16 samples.

Results

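Drd1, Drd2, Ppp1r1b, Rgs9, Penk and Pde10a are 6 of the 24421 genes listed in the tables, and all 6 are known as markers of striatal medium spiny neurons. They were chosen by name, with earlier results of these data known, so their levels, differences and correlations are given as descriptions. Where a fit over all genes called any of them, the call is stated but is not read as support. RNA of the somatosensory cortex was sequenced from wild-type C57BL/6 mice and from AcPb-/- mice, which lack the brain isoform of the interleukin-1 receptor accessory protein. Mice of both genotypes were 2 to 3 months old, were male by their labels, and were collected at ZT4, with ZT0 at light onset. They had either been left undisturbed or been kept awake by gentle handling for 8 h from ZT20 to ZT4 (sleep disruption, SD). Each of the 4 combinations of genotype and treatment had 3 libraries, and 4 further samples of the labels were not analysed here.

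Medium spiny neurons are the GABAergic projection neurons of the striatum, which lies beneath the cortex and is separated from it by white matter. They fall into a direct-pathway type that carries the D1 dopamine receptor and an indirect-pathway type that carries the D2 receptor, the adenosine A2a receptor and enkephalin. Dopamine and adenosine act on them through cyclic AMP, and DARPP-32, phosphodiesterases and RGS proteins act along that path. The cortex also expresses several of these genes in its own cells, at different levels. D1 receptor RNA is found in deep-layer cortical neurons, enkephalin RNA in cortical interneurons and DARPP-32 RNA in layer 6.

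The promoters of Drd1, Drd2 and Rgs9 are shown because these genes moved together across libraries while their levels differed. The table of RefSeq promoter windows (build GRCm38.p6, 250 bases before to 50 after each start) matched 4 of the 6 genes by symbol, and Penk and Ppp1r1b had no entry. The stretches printed end ahead of every start annotated by RefSeq or GENCODE, 5′ to 3′ on the gene's strand, and capitals mark a GC box (GGGCGG or its reverse complement CCGCCC) or a TATA box (TATAAA or TTTATA).
Drd1 promoter, chr13:54055706-54055908, minus strand: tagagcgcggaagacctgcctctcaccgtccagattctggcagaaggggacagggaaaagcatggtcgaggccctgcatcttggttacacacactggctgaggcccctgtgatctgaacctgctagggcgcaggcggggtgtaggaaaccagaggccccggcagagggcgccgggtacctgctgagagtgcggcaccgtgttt
Drd2 promoter, chr9:49340153-49340359, plus strand: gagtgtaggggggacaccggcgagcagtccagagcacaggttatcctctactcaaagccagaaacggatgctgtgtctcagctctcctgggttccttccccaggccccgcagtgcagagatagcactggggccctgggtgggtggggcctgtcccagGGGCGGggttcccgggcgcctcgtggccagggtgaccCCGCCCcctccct
Rgs9 promoter, chr11:109298182-109298431, minus strand: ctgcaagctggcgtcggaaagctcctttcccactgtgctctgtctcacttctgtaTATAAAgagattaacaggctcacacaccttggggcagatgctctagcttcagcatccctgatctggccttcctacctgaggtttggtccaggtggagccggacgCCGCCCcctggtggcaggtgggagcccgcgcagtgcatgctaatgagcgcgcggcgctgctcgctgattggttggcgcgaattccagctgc
The stretches held 0 GC boxes for Drd1, 2 for Drd2 and 1 for Rgs9, and TATA box letters were found in Rgs9 alone of these 3. They lie in the upstream part of its stretch, away from the start, and whether they act as a TATA box was not tested. Over the whole 300-base windows, a GC box was present in 6 of the 6 windows of Drd1, Drd2, Rgs9 and Pde10a, against 35.7% of all 32851 windows. A TATA box was present in 13.6% of all windows. The cyclic AMP response element TGACGTCA and its shorter core TGACG, which lies within the full element, were searched on both strands and were found in 0 of the 6 windows, against 1.8% and 20.8% of all windows. GC content was 67.6% in the Drd2 stretch, 62.6% in Drd1 and 59.6% in Rgs9, with a median of 52.7% over all windows.

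The genes lie on 5 chromosomes (GENCODE M21, GRCm38). Drd1 spans chr13:54051183-54055705, Drd2 chr9:49340627-49408177, Ppp1r1b chr11:98348404-98357796, Rgs9 chr11:109225355-109298129, Penk chr4:4133531-4138819 and Pde10a chr17:8525372-8986648, and all are protein coding. Ppp1r1b shared 4.82% of its 100-base exonic stretches with 1700003D09Rik on the opposite strand, and Penk shared 3.79% with A830012C17Rik, also opposite. Whether reads were counted by strand was not given in the sources used here, so reads of such pairs may not be told apart there. The other 4 genes shared none.

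Between 26504840 and 41615582 reads fell on genes in the undisturbed libraries and between 58770286 and 71857505 after SD, so depth and SD cannot be told apart. The counts of Il1rap, the gene altered in AcPb-/- mice, ranged from 1476 to 1520 normalized counts in undisturbed wild-type and from 1515 to 1647 in undisturbed AcPb-/- libraries, and after SD from 1729 to 1920 and from 1923 to 2062, and counts per gene do not separate its isoforms. Although the mice were male by their labels, 25352 to 39358 reads of the female-expressed Xist were found in undisturbed wild-type replicates 02 and 03 and undisturbed AcPb-/- replicates 04 and 05, against 5 to 13 reads in the other 8 libraries. AcPb-/- after SD replicate 04 stood apart by 16190 normalized counts of the choroid plexus gene Ttr, against 10.6 to 283 elsewhere. Slc17a7, a marker of cortical glutamatergic neurons, was the most abundant of 10 cortical markers, and their summed level varied 1.34-fold across the 12 libraries. RNA of such neurons was thus present in each library, while the cortical area taken was not tested. In bulk RNA, fewer cells of a type and less RNA per cell cannot be told apart.

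All levels by library are normalized counts, reads divided by a size factor set over the 12 libraries together. Per kilobase of exon, the median level over libraries was 1346 for Penk, 1191 for Ppp1r1b, 432 for Pde10a, 196 for Rgs9, 121 for Drd1 and 13.4 for Drd2. Penk and Ppp1r1b overlapped in their range per kilobase, 868 to 2634 against 925 to 1478, whereas Drd2 at 8.32 to 118 overlapped only Drd1 and Rgs9 among the others. The D2 receptor gene was thus both the lowest of these genes per kilobase and the most variable. Its highest library exceeded its lowest 14.2-fold, against 4.00-fold for Rgs9, 3.20-fold for Pde10a, 3.04-fold for Penk, 2.61-fold for Drd1 and 1.60-fold for Ppp1r1b.

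Of the receptors, Drd2 was measured at 301, 123 and 34.6 normalized counts in undisturbed wild-type replicates 01, 02 and 03, and at 60.0, 31.5 and 25.9 in wild-type after SD replicates 01, 02 and 04. AcPb-/- mice had 104, 21.2 and 22.6 in undisturbed replicates 03, 04 and 05, and 31.8, 33.4 and 239.8 in replicates 02, 03 and 04 after SD. These rest on 12 to 338 reads per library. Undisturbed wild-type replicate 01, AcPb-/- after SD replicate 04, undisturbed wild-type replicate 02 and undisturbed AcPb-/- replicate 03 were the highest of the 12, and the 4 groups overlapped. Wild-type after SD was the 1 group with no library above 60.0.

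Drd1, the D1 receptor of direct-pathway neurons, had the same 4 libraries on top. It was 713.9, 580.3 and 449 normalized counts in undisturbed wild-type replicates 01, 02 and 03, and 358, 340.3 and 430.3 in wild-type after SD replicates 01, 02 and 04. Its level in AcPb-/- mice was 562, 355 and 273 in undisturbed replicates 03, 04 and 05, and 393, 447 and 658 in replicates 02, 03 and 04 after SD. The wild-type groups did not overlap, with 449 the lowest undisturbed and 430.3 the highest value after SD (19.7% of all genes were lower after SD without overlap), and the AcPb-/- groups overlapped. The ratio of Drd1 to Drd2 per kilobase was not constant: it was lowest, at 1.66 and 1.93, in undisturbed wild-type replicate 01 and AcPb-/- after SD replicate 04, and reached 11.8 in undisturbed AcPb-/- replicate 04.

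Penk encodes proenkephalin, the opioid precursor of indirect-pathway neurons. It was 4304, 3587 and 1935 normalized counts in undisturbed wild-type replicates 01, 02 and 03, and 2834, 2377 and 2242 after SD in wild-type replicates 01, 02 and 04. In AcPb-/- mice it was 2156, 1418 and 1706 in undisturbed replicates 03, 04 and 05, and 1865, 1840 and 3871 in replicates 02, 03 and 04 after SD. Penk thus shared its 3 highest libraries with Drd2, and all groups overlapped, although 2 of the 3 undisturbed wild-type libraries exceeded every undisturbed AcPb-/- library.

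Among the signalling genes, Rgs9, which encodes a GTPase-activating protein that shortens dopamine receptor signalling, was 2008, 1351 and 694 normalized counts in undisturbed wild-type replicates 01, 02 and 03, and 1259, 1170 and 1129 after SD in wild-type replicates 01, 02 and 04. The AcPb-/- libraries gave 1444, 619.8 and 603 in undisturbed replicates 03, 04 and 05, and 1247, 1300 and 2413 in replicates 02, 03 and 04 after SD. The 6 libraries after SD were at 1129 or more, and the 3 libraries at 694 or less were undisturbed wild-type replicate 03 and undisturbed AcPb-/- replicates 04 and 05, all of which carried Xist reads.

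Pde10a, a phosphodiesterase that degrades cyclic AMP and cyclic GMP in medium spiny neurons, was 8098, 3783 and 2531 normalized counts in undisturbed wild-type replicates 01, 02 and 03, and 5253, 5918 and 5526 after SD in wild-type replicates 01, 02 and 04. In AcPb-/- mice it was 6463, 3531 and 2636 in undisturbed replicates 03, 04 and 05, and 5795, 5574 and 7404 in replicates 02, 03 and 04 after SD. The 4 libraries with Xist reads were the 4 lowest for Pde10a. The undisturbed libraries without Xist reads, wild-type replicate 01 and AcPb-/- replicate 03, were above every wild-type library after SD.

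Ppp1r1b encodes DARPP-32, the phosphoprotein that relays dopamine signals to protein phosphatase 1. It was 4328, 3699 and 2940 normalized counts in undisturbed wild-type replicates 01, 02 and 03, and 3560, 3320 and 2709 after SD in wild-type replicates 01, 02 and 04. Its level in AcPb-/- mice was 3444, 3367 and 3675 in undisturbed replicates 03, 04 and 05, and 3007, 4150 and 3529 in replicates 02, 03 and 04 after SD. Ppp1r1b was the least variable of the 6 genes, and its groups overlapped in each comparison. The plot by library shows these values for all 6 genes.

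**Figure D1:**
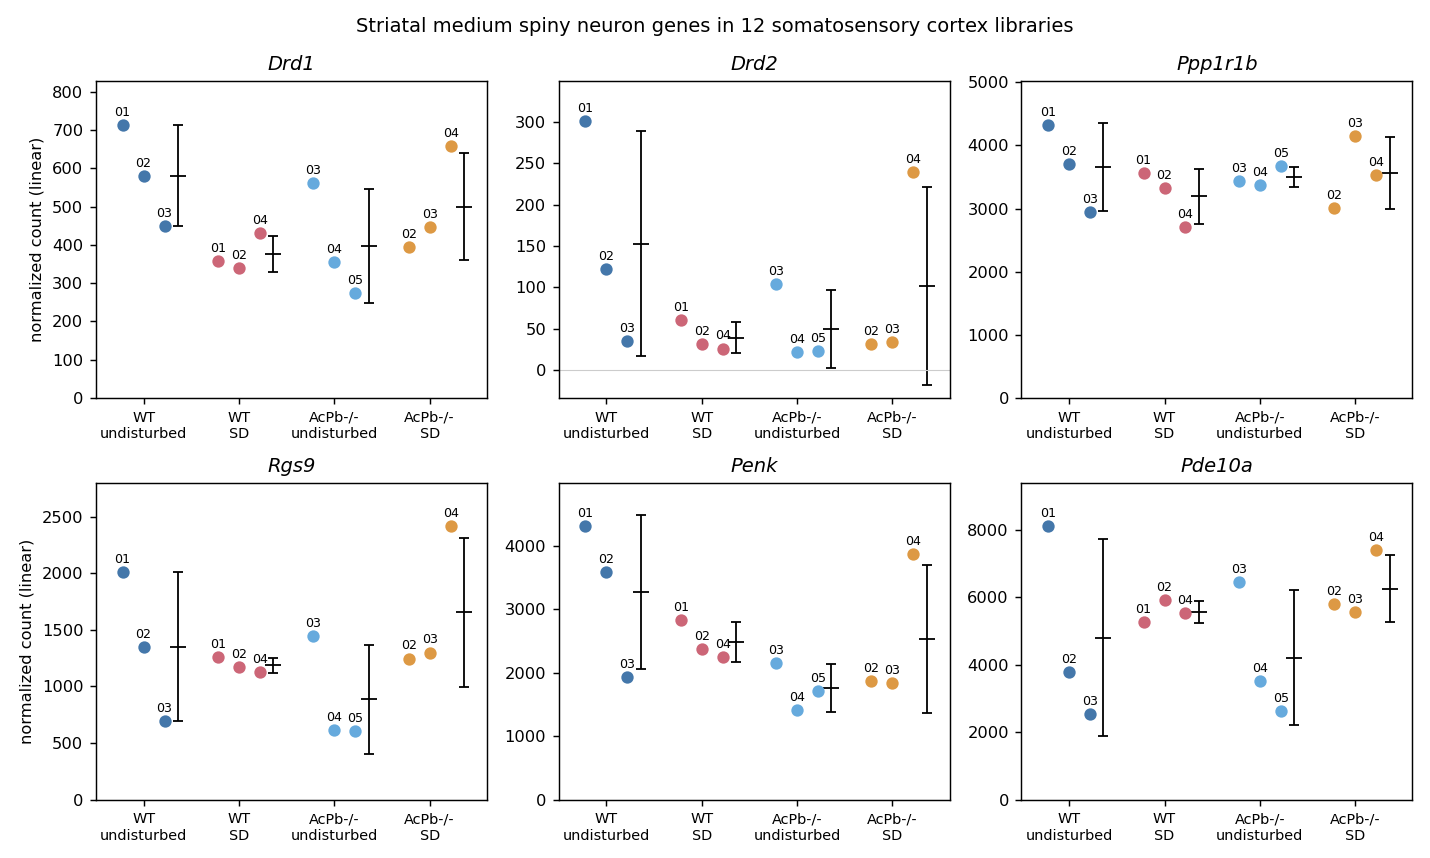
Normalized count (linear axis) of each gene in each library, by group, with the replicate number over each point and the group mean ± SD (n = 3) as a black bar beside it. Undisturbed wild-type replicate 01 and AcPb-/- after SD replicate 04 were the 2 highest libraries for Drd1, Drd2, Rgs9, Penk and Pde10a, while Ppp1r1b ranged only from 2709 to 4328.

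Within groups, the spread followed single libraries. Undisturbed wild-type replicate 01 was the highest of its group for 6 of the 6 genes, and replicate 03 the lowest for 6 of 6. Undisturbed AcPb-/- replicate 03 and AcPb-/- after SD replicate 04 were each the highest of their group for 5 of 6. In wild-type mice after SD the order was mixed, with replicate 01 the highest for 4 of 6 genes and the lowest for 1. Group means carried this spread: Drd2 averaged 153 ± 136 normalized counts (SD, n = 3) in undisturbed wild-type, 39.1 ± 18.3 in wild-type after SD, 49.4 ± 47.6 in undisturbed AcPb-/- and 102 ± 120 in AcPb-/- after SD. Rgs9 averaged 1351 ± 657, 1186 ± 66.3, 889 ± 481 and 1653 ± 658 in the same order, and its SD in wild-type after SD was the smallest of the 4 groups.

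A list of 20 further striatal genes was examined next, 4 known from direct-pathway neurons, 4 from indirect-pathway neurons and 12 from both. Undisturbed wild-type replicate 01 was the highest of its group for 19 of the 20 and replicate 03 the lowest for 20 of 20. AcPb-/- after SD replicate 04 was the highest of its group for 15 of 20 and undisturbed AcPb-/- replicate 03 for 13 of 20. Summed levels spanned 4.69-fold over the 12 libraries for the indirect-pathway genes, 1.44-fold for the direct-pathway genes and 1.38-fold for those of both types. These sums follow the most abundant genes, led by Adora2a, Pdyn and Gnal, and single genes did not all keep this order. Indirect-pathway genes spanned from 2.55-fold (Sp9) to 11.2-fold (Adora2a). Of those of both types, Ido1 spanned 14.0-fold (on 5 to 41 reads per library) and Syndig1l 8.70-fold, but Adcy5 1.89-fold and Gnal 1.44-fold. Isl1 (direct pathway) and Six3 (both types) reached 0 and have no fold range. The summed level of the indirect-pathway genes was 352 to 1286 normalized counts in undisturbed wild-type and 274 to 336 in wild-type after SD. It was 357 to 759 in undisturbed AcPb-/- and 327 to 604 in AcPb-/- after SD.

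Isl1 and Six3, transcription factor genes of striatal projection neurons, were at or near 0 in most libraries. They were named after their values were seen, and whether their reads follow the amount of striatal tissue in a library was not tested. Six3 had 50, 41 and 0 reads in undisturbed wild-type replicates 01, 02 and 03, and 12, 6 and 1 reads in wild-type after SD replicates 01, 02 and 04. AcPb-/- libraries had 14, 1 and 2 reads in undisturbed replicates 03, 04 and 05, and 1, 12 and 71 reads in replicates 02, 03 and 04 after SD. Isl1 had 15, 10, 4 and 23 reads in undisturbed wild-type replicates 01 and 02, undisturbed AcPb-/- replicate 03 and AcPb-/- after SD replicate 04, and 4 reads or fewer in the other 8 libraries. Where 0 reads were counted, the depth allows up to 3, which covers counting error only.

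The summed normalized count of Isl1 and Six3 was 82.3, 71.8, 23.5 and 66.7 in those 4 libraries, in the order named, and at most 10.8 elsewhere. Across the 12 libraries, its log2 value correlated with that of Drd2 at r = 0.90 (rho = 0.77), of Penk at r = 0.82 (rho = 0.68), of Rgs9 at r = 0.76 (rho = 0.83), of Drd1 at r = 0.72 (rho = 0.58), of Ppp1r1b at r = 0.72 (rho = 0.80) and of Pde10a at r = 0.54 (rho = 0.58). The libraries share groups, a tissue block each and, within treatment, depth, so these are descriptions. Drd2 had r = 0.89 in the 6 undisturbed libraries and r = 0.90 in the 6 after SD, and Pde10a had r = 0.78 and r = 0.67. With the logarithm of depth, Drd2 had r = -0.03, whereas Pde10a had r = 0.49 and Rgs9 r = 0.45.

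**Figure D2:**
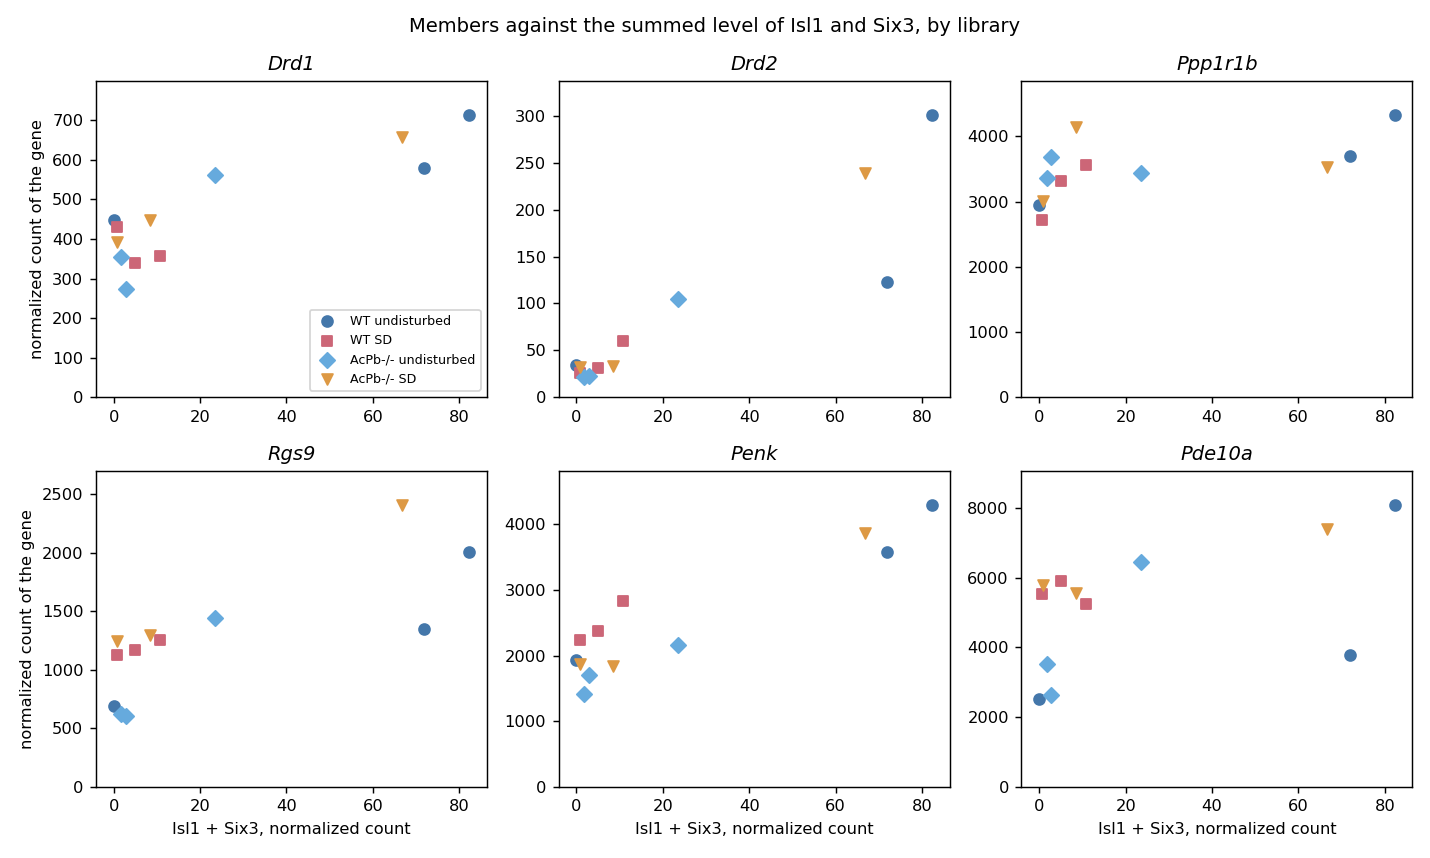
Normalized count of each gene (vertical axes, linear, from 0) against the summed normalized count of Isl1 and Six3 (horizontal axes) in the 12 libraries, with symbols for the 4 groups. Drd2 lay at 60.0 or less where Isl1 and Six3 summed to at most 10.8, while Rgs9 and Pde10a spread at that end, with SD libraries above undisturbed ones.

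At that low end, Rgs9 and Pde10a differed between the undisturbed libraries and those after SD. Among the libraries with at most 10.8 normalized counts of Isl1 and Six3, Rgs9 was 694, 619.8 and 603 in the undisturbed ones and 1129 to 1300 in the 5 after SD. Pde10a was 2531, 3531 and 2636 in the same undisturbed libraries and 5253 to 5918 after SD. These 3 undisturbed libraries are among the 4 with Xist reads and had less depth than those after SD. Treatment, Xist reads and depth therefore cannot be told apart in this difference.

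The difference between the libraries with the most and the least Drd2 in each group put the genes on a common scale. Per normalized count of Drd2 gained, Six3 gained 0.237 in undisturbed wild-type, 0.216 in wild-type after SD, 0.198 in undisturbed AcPb-/- and 0.238 in AcPb-/- after SD. Isl1 gained 0.0712, 0.0791, 0.0627 and 0.0784 in the same order, on 4 reads against 0 in wild-type after SD and in undisturbed AcPb-/-. The proportion did not hold for the remaining library of any group. In undisturbed wild-type, replicate 02 over replicate 03 gained 0.657 of Six3 and 0.160 of Isl1 per count of Drd2. The middle over the lowest library gained 0.755 of Six3 in wild-type after SD, 0.734 in undisturbed AcPb-/- and 4.36 in AcPb-/- after SD. Only 5.62, 1.45 and 1.625 counts of Drd2 separated these 3 pairs. Between the highest and lowest libraries, Penk gained 8.89 normalized counts per count of Drd2 in undisturbed wild-type and 17.4 in wild-type after SD. It gained 8.88 in undisturbed AcPb-/- and 9.64 in AcPb-/- after SD.

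Adora2a, the A2a receptor gene of indirect-pathway neurons, gained 2.68 and 2.19 normalized counts per count of Drd2 in undisturbed wild-type and undisturbed AcPb-/-, but 0.0484 in wild-type after SD and 0.953 in AcPb-/- after SD. Per kilobase, its ratio to Drd2 was 2.25 to 4.02 in the 6 undisturbed libraries. After SD it was 1.33, 2.67 and 3.02 in wild-type replicates 01, 02 and 04 and 1.91, 2.66 and 0.940 in AcPb-/- replicates 02, 03 and 04, so 3 of these 6 lay within the undisturbed range and 3 below it. Pde10a gained 20.9 and 35.2 in the undisturbed groups, 7.73 in AcPb-/- after SD and -8.00 in wild-type after SD, where the library with more Drd2 had less Pde10a. Pairs of single libraries have no replicate check, and 34.1 counts of Drd2 separated the pair of wild-type libraries after SD, the smallest gap of the 4.

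**Figure D3:**
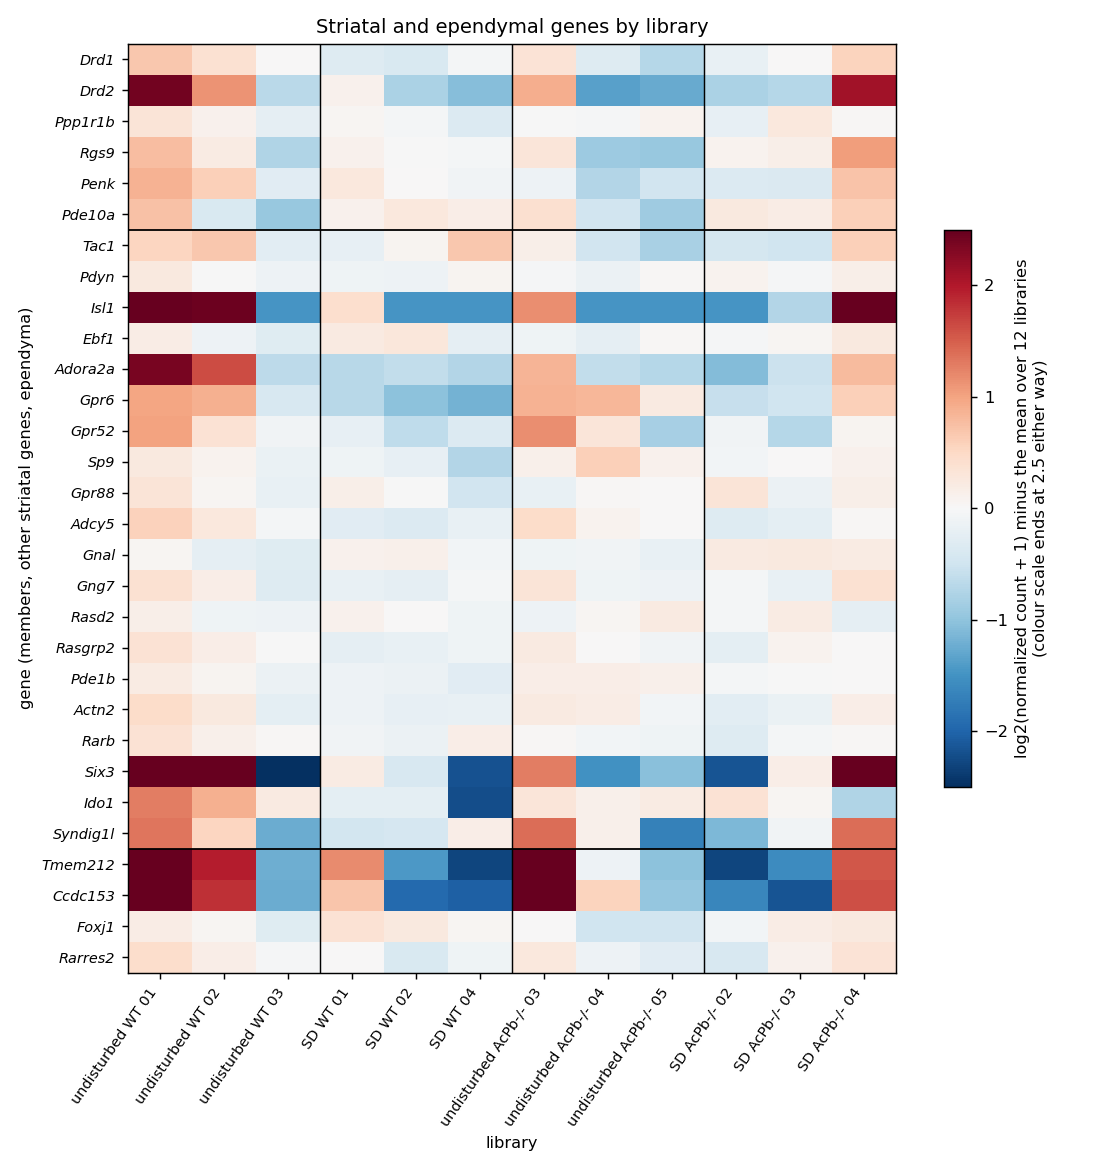
Log2(normalized count + 1) of each gene less its mean over the 12 libraries, for the 6 genes (top), the 20 further striatal genes (middle) and 4 ependymal genes (bottom), with libraries in columns and groups divided by vertical lines. Undisturbed wild-type replicates 01 and 02, undisturbed AcPb-/- replicate 03 and AcPb-/- after SD replicate 04 were raised for Drd2, Isl1, Adora2a, Six3, Tmem212 and Ccdc153.

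Between the 6 genes, Pearson's r of log2(normalized count + 1) across the 12 libraries was positive for 15 of 15 pairs, with a mean of 0.62 and a range of 0.26 to 0.90. Mean Spearman's rho was 0.59. The closest pairs were Drd2 with Penk (r = 0.90, rho = 0.80), Drd1 with Drd2 (r = 0.88, rho = 0.87) and Rgs9 with Pde10a (r = 0.88, rho = 0.78). Ppp1r1b correlated least, with a mean r of 0.37 with the other 5.

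Without the 2 libraries farthest from the median of each pair's x-axis gene, the mean r was 0.46. For Drd2 with Pde10a, r fell from 0.58 to 0.26 without undisturbed wild-type replicate 01 and AcPb-/- after SD replicate 04. Without undisturbed wild-type replicate 01 and undisturbed AcPb-/- replicate 05, Drd1 with Pde10a fell from 0.56 to 0.20 and Drd1 with Drd2 remained at 0.84. Both relations with Pde10a thus rested on the libraries left out. Rgs9 with Pde10a was 0.83 without undisturbed AcPb-/- replicates 04 and 05. That pair kept the libraries with the most Drd2, so its value is not comparable. Taken as deviations from the group means, the mean r was 0.71, with Drd2 with Rgs9 and Drd2 with Penk both at 0.96. The joint movement was thus present in deviations pooled over the groups, but not in each group. In wild-type after SD, the library with the most Drd2 had more Ppp1r1b, Rgs9 and Penk than the library with the least. It had less Drd1 and Pde10a. The mean r was 0.78 in the 6 undisturbed libraries and 0.61 in the 6 after SD. Leaving out undisturbed wild-type replicate 01 gave the lowest mean, 0.50.

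**Figure D4:**
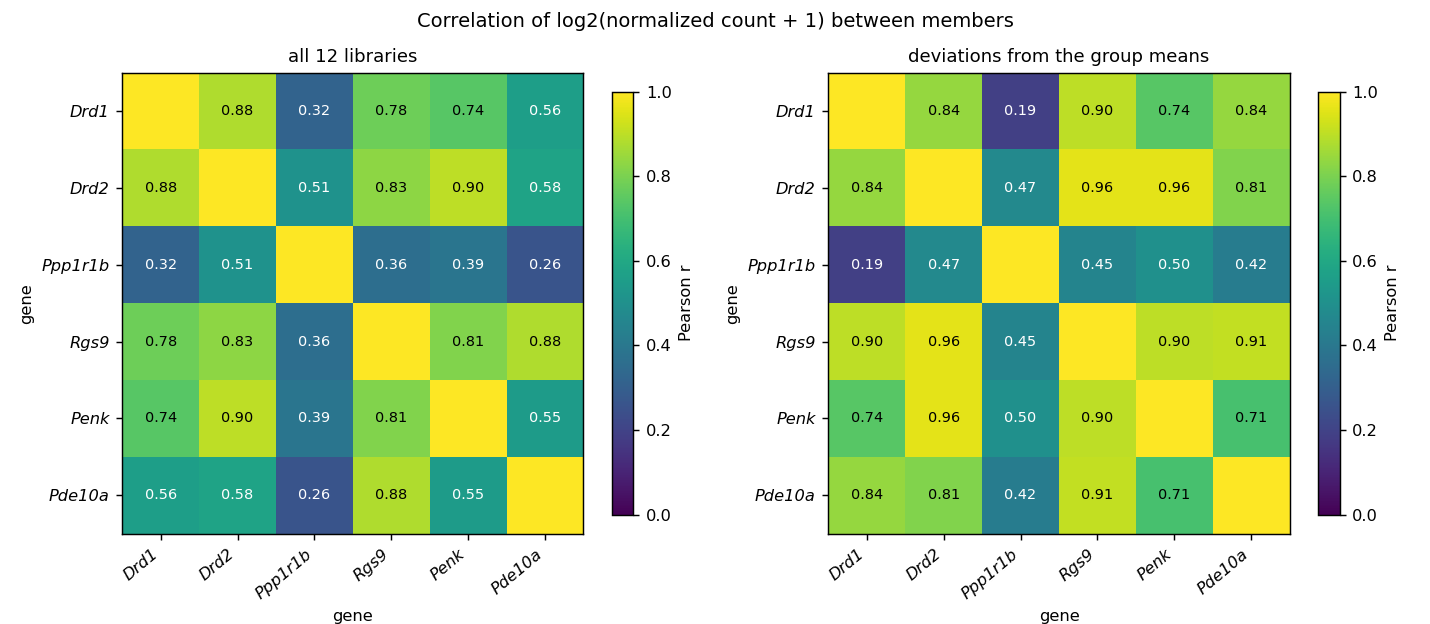
Pearson's r between each pair of the 6 genes on log2(normalized count + 1), over the 12 libraries (left) and for deviations from the 4 group means (right), with colour from 0 to 1. Ppp1r1b has the lowest values in both panels, and Drd2 with Rgs9 and with Penk reach 0.96 within groups.

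Genes were then ranked by their r with the mean standardized log2 level of the 6 genes over the 12 libraries, among 12550 other genes with a mean of at least 100 normalized counts. The 12 most alike were Pde1c (r = 0.92), Gstm7 (0.88), Papss2 (0.86), Lrrc10b (0.85), Gfra1 (0.84), Nfatc2, Adora2a and Itga9 (0.83 each), Syp, Dnah6 and Gng7 (0.82 each) and Cyp26b1 (0.81). Of these, 9 had r of at least 0.9 in the 6 undisturbed libraries. Pde1c ranged from 149 to 418 normalized counts and Lrrc10b from 64.8 to 329.9, while Syp, a synaptic vesicle gene, ranged only from 63930 to 70040. Of the 16 further striatal genes that could be ranked, 13 were in the top 10% of the genes ranked, a share of 81.2%, and their median r was 0.57 against -0.02 over all genes. Rasd2, an exception, had r = -0.16.

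Markers of other cell types moved with the 6 genes to different degrees. The ependymal genes Foxj1, Tmem212, Ccdc153 and Rarres2, none of which was at 0 in every library, had a summed level of 267 to 459.5 normalized counts in undisturbed wild-type, 313 to 402 in wild-type after SD, 235 to 418 in undisturbed AcPb-/- and 283 to 414 in AcPb-/- after SD, with r = 0.92 with the mean level of the 6 genes. Tmem212 and Ccdc153 of ventricular ependyma summed to 92.4, 53.5, 93.9 and 44.0 in undisturbed wild-type replicates 01 and 02, undisturbed AcPb-/- replicate 03 and AcPb-/- after SD replicate 04, and to at most 25.6 elsewhere. The libraries with the most Isl1 and Six3 were thus also those with the most Tmem212 and Ccdc153. The part of ependyma or of the tissue block taken in any result here was not tested.

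The 8 oligodendrocyte markers, led by Mbp, summed to 112800 to 145200 in undisturbed wild-type, 91720 to 127000 in wild-type after SD, 56770 to 130300 in undisturbed AcPb-/- and 74570 to 110200 in AcPb-/- after SD (r = 0.57). The 4 choroid plexus markers summed to 286 to 548 normalized counts in 11 libraries and 17600 in AcPb-/- after SD replicate 04 (r = 0.50). Markers of claustrum and insula, led by Nr4a2, had r = 0.66, and those of cholinergic neurons, led by Slc5a7, r = 0.59. The summed markers of cortical glutamatergic neurons (r = 0.05), thalamus (0.04, led by Slc17a6) and hippocampus (0.16, led by Wfs1) had r near 0. Those of cortical interneurons, led by Gad1, had r = -0.40. Each r is of a summed level and follows the most abundant genes of its list, so single genes of a list can differ from it. None of these lists had a gene at 0 in every library.

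In wild-type mice, mice after SD were compared with undisturbed mice across 20417 genes, of which 25.4% passed an adjusted p under 0.05 by limma and 12.2% passed and were lower after SD. Drd1 was the 1 of the 6 genes that passed and was lower, with a log2 fold change of -0.61 ± 0.16 (SE). The rule chose the genes with this contrast known, so nothing is read from that count. The log2 fold changes of the other 5 were -1.55 ± 0.62 for Drd2, -0.33 ± 0.23 for Penk, -0.19 ± 0.13 for Ppp1r1b, -0.06 ± 0.29 for Rgs9 and 0.38 ± 0.31 for Pde10a. Groups did not overlap for 1 of 6 genes, Drd1, against 40.2% of all genes not overlapping in either direction and 19.7% lower.

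Which of the 6 genes passed depended on single libraries of both groups. Without undisturbed wild-type replicate 03, 4 passed and were lower (Drd1, Drd2, Rgs9 and Penk), beside 4263 of 20306 genes. Without undisturbed replicate 01, Pde10a alone passed and was higher, with a log2 fold change of 0.84, beside 4347 of 20322 genes. Without SD replicate 04, Drd1 alone passed and was lower, beside 6222 of 20249 genes. Without undisturbed replicate 02, SD replicate 01 or SD replicate 02, 0 passed. All genes called fell to 2699, 2941 and 2836 in these 3 fits, from 5186 with all libraries. The median log2 fold change of the 6 genes, -0.26 against -0.004 over all genes, moved from -0.57 to -0.07 when single libraries were left out. Without both undisturbed libraries that held Xist reads, a choice made after the data were seen that leaves 1 undisturbed library, it was -0.78, and 0 of all genes passed.

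Of the 20 further striatal genes, 6 were lower after SD in wild-type mice and 0 higher (limma, adjusted p), beside 25.4% of all genes called in either direction and 12.2% lower. The median log2 fold change of the 20 was -0.34. The list was chosen with earlier results of these data known, so its calls are no independent test of the 6 genes. Gpr6 (-1.46 ± 0.34, adjusted p = 0.0112) and Gpr52 (-0.82 ± 0.25, adjusted p = 0.0368), orphan receptors of indirect-pathway neurons, were lower, as was Adora2a (-1.81 ± 0.58, adjusted p = 0.0428). Adcy5, the striatal adenylyl cyclase (-0.53 ± 0.13, adjusted p = 0.0128), Rasgrp2 (-0.35 ± 0.10, adjusted p = 0.0241) and Ido1 (-1.70 ± 0.51, adjusted p = 0.0329) completed the 6. Ido1 rests on 5 to 41 reads per library. Of the 4 indirect-pathway genes 3 were called, and of the 4 direct-pathway genes 0, with a median log2 fold change of -1.14 for the former and -0.11 for the latter. Markers of other cell types went both ways in the same comparison. Lower were 5 of 8 oligodendrocyte genes, with a median of -0.42, and 2 of 2 claustrum and insula genes (Nr4a2 and Gnb4), with a median of -0.64. Higher were 4 of 8 cortical interneuron genes (median 0.07), 1 of 4 choroid plexus genes (0.30) and 1 of 4 thalamus genes (0.09). Of 10 cortical glutamatergic genes, 2 were higher and 3 lower (median -0.11). For hippocampus (median -0.12) and cholinergic neurons (0.06), 0 were called. Of the 4 ependymal genes 0 were called, with a median of -1.18, and the part of these cell types in the striatal values was not tested. The 6 lower genes became 12 without undisturbed wild-type replicate 03, 2 without replicate 01, 0 without replicate 02, and 3, 2 and 4 without SD replicates 01, 02 and 04. Over the same 6 fits, 2699 to 6222 of all genes were called in either direction. Gnal passed and was higher without undisturbed replicate 01 and without SD replicate 04. Gpr6 passed in 5 of these 6 fits and Adora2a and Gpr52 in 1 each.

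In AcPb-/- mice, where 27.4% of 20574 genes passed after SD, 0 of the 6 genes did (limma, with 2 at an unadjusted p under 0.05, and 0 by edgeR and by DESeq2). Their log2 fold changes were 0.95 ± 0.35 for Rgs9, 0.77 ± 0.83 for Drd2, 0.67 ± 0.28 for Pde10a, 0.45 ± 0.27 for Penk, 0.36 ± 0.27 for Drd1 and 0.02 ± 0.11 for Ppp1r1b. Groups overlapped for 6 of 6, while 42.3% of all genes did not overlap. The median was 0.56, against 0.014 over all genes, and 0.12 without AcPb-/- after SD replicate 04, the library with choroid plexus RNA. Without undisturbed AcPb-/- replicate 03 the median was 0.84, and Rgs9 and Pde10a passed and were higher. The fits that left out 1 library called 3393 to 5412 of all genes. Without both undisturbed libraries with Xist reads the median of the 6 genes was -0.01.

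Of the 20 further striatal genes, 2 passed in AcPb-/- mice, where 27.4% of all genes did. Gnal, which encodes the G protein that couples D1 and A2a receptors to adenylyl cyclase, was higher after SD by 0.35 ± 0.05 (adjusted p = 0.00263) and passed in 6 of the 6 fits that left out 1 library. It was 8435, 8549 and 7997 normalized counts in undisturbed replicates 03, 04 and 05 and 10560, 10690 and 10450 in replicates 02, 03 and 04 after SD. Pde1b, a calcium-dependent phosphodiesterase, was lower by -0.17 ± 0.05 (adjusted p = 0.0440) and passed in 0 of those 6 fits.

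Between genotypes, 0.0197% of 20273 genes passed in undisturbed mice and 0.0145% of 20621 after SD. None of the 6 genes and none of the 20 others passed in either comparison by limma, edgeR or DESeq2. At an unadjusted p under 0.05 limma gave 2 of the 6 and 1 of the 20 in undisturbed mice, and 0 and 3 after SD. In undisturbed AcPb-/- against wild-type mice the log2 fold changes were -1.52 ± 0.77 for Drd2, -0.84 ± 0.26 for Penk, -0.60 ± 0.40 for Rgs9, -0.59 ± 0.25 for Drd1, -0.12 ± 0.41 for Pde10a and -0.05 ± 0.12 for Ppp1r1b. After SD they were 0.78 ± 0.68 for Drd2, 0.41 ± 0.21 for Rgs9, 0.38 ± 0.18 for Drd1, 0.16 ± 0.11 for Pde10a, 0.15 ± 0.13 for Ppp1r1b and -0.06 ± 0.25 for Penk. Groups overlapped for 6 of 6 genes in both comparisons, against 14.4% and 11.4% of all genes that did not.

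The median of the 6 was -0.60 in undisturbed mice, and it was -0.34 without wild-type replicate 01 and -0.94 without AcPb-/- replicate 03 in fits that left out 1 library. After SD it was 0.27, and 0.07 without AcPb-/- replicate 04. The comparisons share libraries, so a high undisturbed wild-type library lowers both the SD effect in wild-type mice and the genotype difference in undisturbed mice. Whether the SD effects on these genes differed between genotypes was not tested, because the genes were chosen with these values known.

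**Figure D5:**
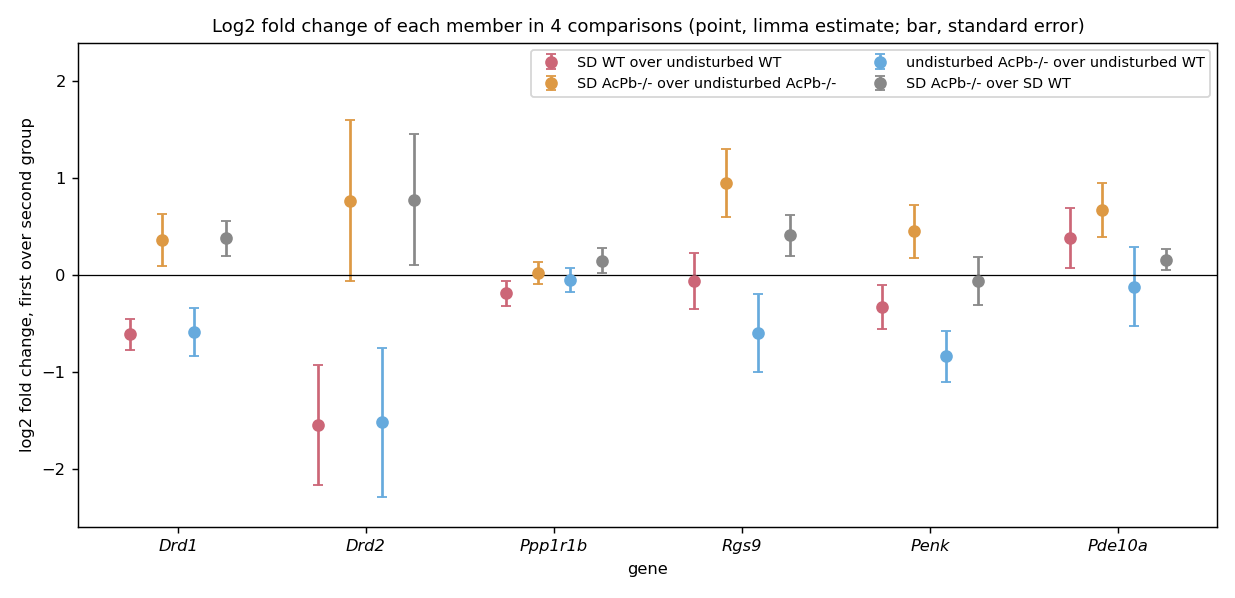
Log2 fold change (limma, first-named over second-named group) of each gene in the 4 comparisons, with bars for the standard error (3 libraries per group). Drd2 has the widest bars, with standard errors of 0.62 to 0.83, and Ppp1r1b lies within 0.19 of 0 in each comparison.

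With the log2 level of Isl1 and Six3 added to each fit as a covariate, an alternative chosen after seeing the data, Drd2 moved from -1.55 to -0.82 in wild-type mice after SD, from 0.77 to 0.33 in AcPb-/- mice after SD, from -1.52 to -0.76 between undisturbed genotypes and from 0.78 to 0.24 between genotypes after SD. Penk moved from -0.33 to -0.04 in wild-type mice after SD. Drd1 moved from -0.61 to -0.50 there. It was among the 4437 of 20417 genes called in that fit, and nothing is read from that call. In the same comparison Rgs9 moved from -0.06 to 0.28 and Pde10a from 0.38 to 0.67, both farther from 0. In AcPb-/- mice after SD, Rgs9 moved from 0.95 to 0.77 and Pde10a from 0.67 to 0.56. Both thus had positive estimates in both genotypes. Of these 2 genes only Rgs9 in AcPb-/- mice passed, and nothing is read from that either. The medians of the 6 genes were -0.04, 0.32, -0.29 and 0.17, each nearer 0 than without the covariate. Isl1 and Six3 are themselves measured on few reads, and the choice of covariate was made knowing its correlation with these genes.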

How the data were processed

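The authors aligned paired-end reads of TruSeq stranded mRNA libraries to mm10 with HISAT2 (2.2.1 by the processing notes), counted reads per gene (HTSeq in the methods, featureCounts in the notes) and normalized the counts with DESeq2 (version 1.31.16 in the notes). The deposited tables are 5, each of 2 groups and 24421 genes. Their per-library values are a signal, the read count over a size factor set by the authors for the library. The authors' fold change, standard error, statistic and p-value columns hold their own comparisons and were not used. The 6 genes and all gene lists were chosen with earlier results of these data known.

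The size factors were undone, which gave whole reads (to within 0.01) for 100.0% of the 732630 values. Levels by library were scaled over the 12 libraries together with median-of-ratios size factors. Each comparison was fitted within its own table on log2(normalized count + 1) with limma (3.58.1, R 4.3.3) and its variance trend, over all genes detected in any of its 6 libraries, with 4 residual degrees of freedom and Benjamini-Hochberg adjustment over all of them. Fold changes of low genes are understated on this scale. The scripts were first tested on simulated data. Count tests on the recovered reads, edgeR (4.0.16) and DESeq2 (1.42.0), called 5368 and 5376 genes after SD in wild-type mice and 5682 and 5804 in AcPb-/- mice.

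The genes named are the 6, those of the 20 further striatal genes that were called, the 12 genes most alike over the libraries, and the most abundant gene of each marker list. Isl1, Six3, Tmem212, Ccdc153 and other single markers were named after their values were seen. The replicates were labelled as separate mice of a group, and each pair of libraries differed by more than sampling noise. Alternatives were pseudocounts of 0.1 and 10, a mean of at least 10, edgeR, DESeq2, all groups in 1 fit, a replicate block, and each library left out. The alternatives without the undisturbed libraries with Xist reads and with Isl1 and Six3 as covariate were chosen after seeing the data. The sex of the mice was taken from the labels, and the 4 samples without a column were not analysed here.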

Additional observations from a re-analysis of the deposited data

How the results depend on the processing

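With 3 libraries per group, 1 library set many of the values given for the 6 genes. Leaving out each library in turn gave 2699 to 6222 genes called after SD in wild-type mice (5186 with all libraries), 3393 to 5412 in AcPb-/- mice (5633), 0 to 168 between undisturbed genotypes (4) and 0 to 4 between genotypes after SD (3). Over the same fits, the count of the 20 further striatal genes was 0 to 12, 1 to 3, 0 to 0 and 0 to 0. The median log2 fold change of the 6 genes was -0.57 to -0.07, 0.12 to 0.84, -0.94 to -0.34 and 0.07 to 0.40, and their mean correlation 0.50 to 0.66. That correlation was 0.67 on normalized counts, 0.71 for deviations from the group means and 0.78 in undisturbed libraries. With a replicate block, 0 genes were called after SD in wild-type mice, in AcPb-/- mice and between genotypes after SD, as were 0 of the 20 genes, with 1 residual degree of freedom. Same-numbered libraries deviated together at r = -0.15 to 0.22 over 2 shared numbers per comparison, so the numbers were not taken as pairs. No paired analysis was possible between undisturbed genotypes because they share 1 number. Without the undisturbed libraries with Xist reads, 0 genes and 0 of the 20 were called after SD in either genotype, with medians of the 6 genes of -0.78 and -0.01, and the fit was not run between undisturbed genotypes, where 1 library per group would remain. With all groups in 1 fit, 1 of the 20 genes was called after SD in AcPb-/- mice, 8 genes between undisturbed genotypes and 5 after SD, and 0 of the 6 genes after SD in wild-type mice. Between genotypes, edgeR called 8 and 9 genes, DESeq2 104 and 99, a pseudocount of 10 gave 0 in undisturbed mice and the Isl1 and Six3 covariate 1. In wild-type mice after SD, edgeR called Drd2 besides Drd1. The cause of these shifts was not tested. Few reads limit Isl1, Six3, Ido1 and Drd2, at 0 to 23, 0 to 71, 5 to 41 and 12 to 338 reads per library.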

Other observations

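Syndig1l, a synapse protein gene enriched in striatum, repeated the order of Drd2 in part. It was 398.7, 229.6 and 65.9 normalized counts in undisturbed wild-type replicates 01, 02 and 03, and 115, 118 and 178 in wild-type after SD replicates 01, 02 and 04. In AcPb-/- mice it was 418, 173 and 48.1 in undisturbed replicates 03, 04 and 05, and 72.0, 149 and 419 in replicates 02, 03 and 04 after SD. The highest library of each group was the highest for Drd2 too, except in wild-type after SD, where replicate 04 was highest.

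Tac1, the substance P precursor gene of direct-pathway neurons, departed from this order in wild-type mice after SD. Replicate 04 of that group held 491.7 normalized counts of Tac1, with 1 read of Six3 and 0 of Isl1, level with the 491.6 of undisturbed wild-type replicate 02, which had 41 and 10 reads. Replicates 01 and 02 of the same group held 268 and 325. Ido1 was 12.1 normalized counts (17 reads) in AcPb-/- after SD replicate 04 and 51.9 (41 reads) in undisturbed wild-type replicate 01. These were the 2 libraries with the most Drd2.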
